A study of Mus musculus with 2 samples.

Results

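B cells were gated in scRNAseq of 1 control and 1 ischemic mouse kidney. The gate asked for at least 3 unique molecular identifiers (UMIs) of Cd79a, Cd79b and Ms4a1 together, making up at least 0.05% of the UMIs of a cell, no UMI of Cd3e, less than 0.5% C1qa, C1qb and C1qc and less than 2% S100a8 and S100a9. It found 71 B cells among 25702 kept cells, 36 of 12586 in the control library and 35 of 13116 in the ischemia library. The cells were chosen by their measured Cd79a, Cd79b and Ms4a1 UMIs, so the levels of these genes are a description.

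The control library came from a contralateral kidney that was not injured. The ischemia library came from a kidney after 27 min of ischemia and 24 h of reperfusion (I/R). Both were from male wildtype C57BL/6J mice 19 weeks of age, and the sources used here do not state whether both kidneys were from 1 mouse. The control kidney thus belonged to an animal with an injured kidney on the other side. Whole digested kidneys were loaded with no sort for leukocytes, and B cells left in vessels after perfusion cannot be told apart from B cells in the tissue. With 1 library per condition, no difference below has a replicate check, no test between conditions was run, and every interval is a 95% interval that covers counting error only.

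B cells carry a receptor made of membrane immunoglobulin, whose heavy and light chains bind antigen, and of the Cd79a and Cd79b chains, which pass the signal to kinases such as Lyn and Syk. Mature naive B cells make IgM and IgD from the same heavy chain locus, use either a kappa or a lambda light chain, and present antigen on MHC class II. Plasma cells, the antibody-secreting end stage, lose much of this surface program and carry very large amounts of immunoglobulin and J chain transcripts.

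The sequences below are windows just before the start sites of 7 genes, and are shown for B cell, receptor pathway and activation genes whose levels are given further on, as examples of where each motif lies. They were taken from the RefSeq promoter table for GRCm38.p6, the patched mm10 build, which matched 60 of 75 B lineage and receptor signaling genes. The 3 short motifs below were searched on both strands, separately, so that matches to different motifs could overlap, in the 250 bases before each start. They were picked after other motifs had been looked at. The octamer ATGCAAAT, the motif named for the Oct factors, was in 526 of 32851 promoters (1.6%) and in 3 of the 60 B cell genes. An Ets-type motif, GAGGAAGT, was in 802 promoters (2.44%) and in 9 of the 60. TGCGTCA, a motif of the cAMP response element type, was in 574 promoters (1.75%) and in 0 of the 60, and Nr4a1, an activation gene outside the 60, was the only promoter with 4 matches. Capitals mark the matches in either orientation. They are letters in a sequence and not shown binding sites.
Cd37, chr7:45238840-45238929, minus strand: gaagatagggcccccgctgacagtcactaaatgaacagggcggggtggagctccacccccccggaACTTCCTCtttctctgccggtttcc
Cd72, chr4:43454627-43454716, minus strand: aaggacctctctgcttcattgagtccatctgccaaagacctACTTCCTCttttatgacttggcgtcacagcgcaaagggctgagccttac
Fcrl1, chr3:87376297-87376386, plus strand: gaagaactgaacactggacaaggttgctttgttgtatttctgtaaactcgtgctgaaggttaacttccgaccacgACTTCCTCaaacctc
Inpp5d, chr1:87620222-87620311, plus strand: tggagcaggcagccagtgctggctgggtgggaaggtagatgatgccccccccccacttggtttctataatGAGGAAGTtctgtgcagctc
Vpreb3, chr10:75948210-75948299, plus strand: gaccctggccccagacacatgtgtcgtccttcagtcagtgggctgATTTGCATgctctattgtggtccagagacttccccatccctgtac
Prkcb, chr7:122289035-122289124, plus strand: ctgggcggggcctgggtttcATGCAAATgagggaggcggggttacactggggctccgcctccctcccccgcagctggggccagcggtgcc
Nr4a1, chr15:101266596-101266845, plus strand: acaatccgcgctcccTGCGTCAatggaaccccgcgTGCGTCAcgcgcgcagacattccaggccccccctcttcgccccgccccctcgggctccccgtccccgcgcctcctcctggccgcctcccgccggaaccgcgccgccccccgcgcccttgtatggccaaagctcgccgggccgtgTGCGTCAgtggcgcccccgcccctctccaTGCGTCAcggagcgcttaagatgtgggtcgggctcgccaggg
The match began 20 bases before the start in Inpp5d and 25 bases before it in Cd37. The 4 matches in Nr4a1 lay 235, 215, 71 and 42 bases before its start. The RefSeq starts used for Nr4a1, Vpreb3, Cd37, Prkcb and, narrowly, Cd72 lie inside the GENCODE spans of these genes, and those for Inpp5d and Fcrl1 are the GENCODE starts.

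B cells made up 0.286% of kept cells in the control library (0.200 to 0.396) and 0.267% in the ischemia library (0.186 to 0.371). The intervals overlapped over most of their length. Which library had the larger share depended on the limits, with 0.399% in control and 0.444% in ischemia among cells of at least 1000 UMIs. The shares were 0.254% and 0.168% with B cells left out that held 3 or more UMIs of macrophage, neutrophil, T or NK cell markers. Most neutrophil marker UMIs were of Lcn2, also made by injured tubules, with 1 UMI in control and 25 in ischemia B cells. That limit can therefore remove cells of the injured kidney through Lcn2, and its shares do not compare B cell numbers. For comparison, T and NK cells, gated on their own receptor and cytotoxic genes, were 0.580% and 0.701%, and C1q-high macrophages were 1.23% and 1.29%. The depth of B cells was close in the 2 libraries. A B cell had a median of 3422 UMIs and 1417 genes in control and of 3804 UMIs and 1515 genes in ischemia, with 6.91% and 6.82% mitochondrial UMIs. All other kept cells had medians of 3841 and 2123 UMIs. In all, the kept cells held 124679362 UMIs in control and 128733541 in ischemia. Of the barcodes, 88 occurred in both files. They included 1 control B cell, whose barcode was not that of a B cell in the ischemia library.

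The sum of the gate genes had a median of 12 UMIs per cell in both libraries and ranged from 4 to 24 in control and from 3 to 27 in ischemia. Just inside the gate lay an ischemia cell with 3 gate UMIs of 1204 and another with 4 of 1430. A control cell of 31174 UMIs passed the percent limit at 0.0706%. Just outside lay 4 control cells with 2 gate UMIs each, of 1035, 1111, 3629 and 3952 UMIs in total. With at least 3 UMIs but under the percent limit, the nearest was an ischemia cell of 36143 UMIs with 16 gate UMIs, or 0.0443%.

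A group of 6 B cells stood apart by size, with more than 8000 UMIs against at most 6924 in the other 65. They were 4 control and 2 ischemia cells and held 38.5% of the B cell UMIs in control and 28.9% in ischemia, so sums over all B cells leaned on them. One was an IgA-secreting cell of the control kidney. Of its 20241 UMIs, 8919 (44.1%) were Igkc, the kappa constant region, 2260 (11.2%) were Igha, the IgA heavy chain, and 1177 (5.81%) were Jchain, which joins IgA into dimers. It also had 37 UMIs of Mzb1 and 38 of Xbp1, the chaperone and the transcription factor of secreting cells, while Ighm, Ighd and Ms4a1 were at 0. Its most abundant variable segment genes were Iglv1 with 56 UMIs (0.277% of the cell), Igkv4-59 with 26 and Ighv1-26 with 13. Iglv1 and Igkv4-59 also had 12 and 7 UMIs in a secreting ischemia cell outside the gate, described further on. Which segments the receptor of either cell used was not tested.

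The other 5 large cells carried markers of other kidney cells beside the B cell genes. Control cells of 31174 and 8459 UMIs had 1387 UMIs of proximal tubule (PT) markers and 65 UMIs of Slc12a3, the sodium chloride transporter of the distal tubule. Control and ischemia cells of 13695 and 32214 UMIs had 186 and 301 UMIs of endothelial markers. An ischemia cell of 20558 UMIs had 388 PT marker UMIs. Whether these barcodes held 2 cells was not tested, because the doublet caller marked 0 of 12586 and 0 of 13116 cells and so gave no usable call. Values below are therefore given for the 65 B cells with at most 8000 UMIs, 32 control and 33 ischemia cells with 117369 and 129593 UMIs. Values over all 71 cells are given only where stated.

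**Figure D1:**
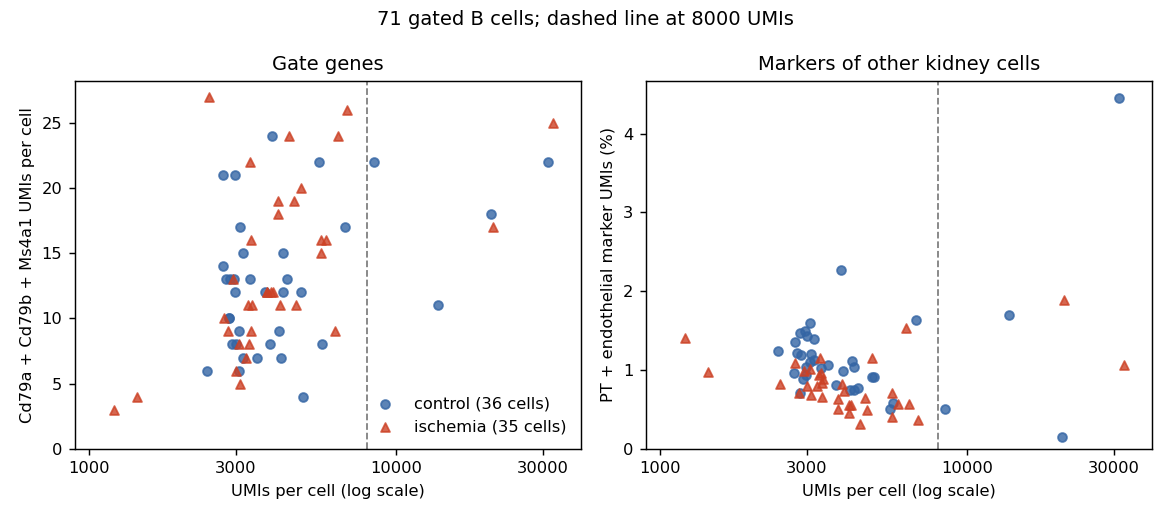
Each point is 1 of the 71 B cells, by its UMIs (log scale) and by its Cd79a, Cd79b and Ms4a1 UMIs (left) or the percent of its UMIs from PT and endothelial markers (right), with circles for control and triangles for ischemia. The 6 cells right of the dashed line at 8000 UMIs include the control cell with 4.45% PT marker UMIs.

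Summed over the 65 cells, markers that the gate did not read were those of B cells. Levels are CPM, the UMIs of a gene per 1000000 UMIs, both summed over the cells of a library. Cd79a, the receptor's signaling chain, had 2002 CPM in the control library and 1999 CPM in the ischemia library, and Ms4a1, which codes for CD20, was at 477 and 633, both fixed by the gate. Among markers outside it, Pax5, the factor that sets B cell identity, was at 281 and 394 CPM. It was at 0 in T and NK cells and in macrophages. Ebf1, which acts with Pax5, was at 1644 and 2485 CPM, Bank1, a B cell scaffold protein, at 1252 and 1790.2, and Ly6d, a lymphoid surface protein, at 1065 and 1366. All 25 B cell markers outside the gate had at least 10 UMIs. The smallest ischemia cell, of 1204 UMIs, did not bear out its label, with 3 gate UMIs, 17 UMIs of proximal tubule markers and none of Ighm, Ighd, Igkc or the lambda genes. None of the 12 T cell markers and none of the 8 NK cell markers had a UMI, and a count of 0 here allows up to 25.6 CPM in the control cells and 23.1 CPM in the ischemia cells.

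**Figure D2:**
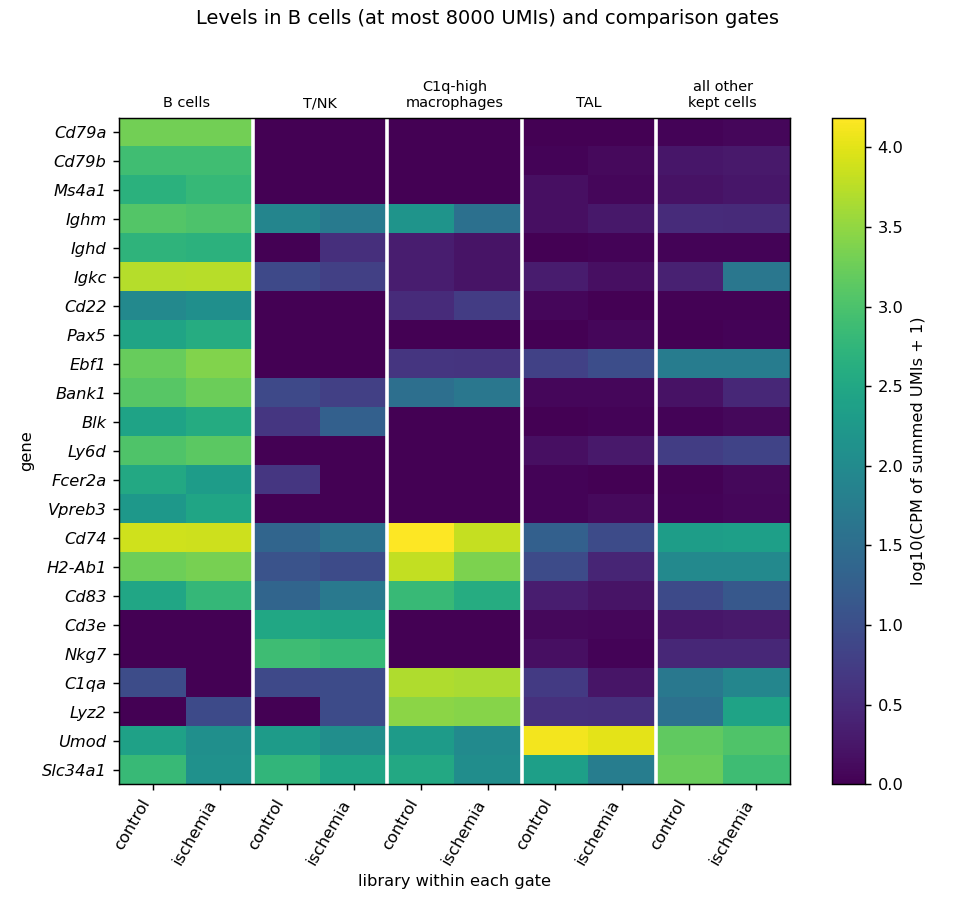
Color gives log10(CPM + 1) of each gene (vertical axis) in the control and ischemia libraries (horizontal axis) for B cells of at most 8000 UMIs, T and NK cells, C1q-high macrophages, TAL cells and all other kept cells. Pax5 had color in B cells and was at 0 in T and NK cells and in macrophages, while Cd74 was above its B cell level in control macrophages.

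Markers of other cell types were still seen in the B cells, most of all those of the PT. The 14 PT markers summed to 10684 CPM in control and 7230.3 in ischemia, against 3289 and 3434 CPM for the gate genes together and 29077 and 20963 CPM of PT markers in all other kept cells. Each of the 65 cells had at least 3 of their UMIs. The most abundant was Gpx3 in control with 406 UMIs and Kap in ischemia with 322. Of 12 macrophage markers 8 were at 0, among them Csf1r and Adgre1, and Apoe led the rest with 29 and 42 UMIs. Endothelial markers summed to 20 and 24 UMIs, with Kdr, Flt1, Cdh5 and Egfl7 at 0. Neutrophil markers summed to 1 and 27 UMIs, of which Lcn2, also made by injured tubules, gave 1 and 23, while Csf3r, Retnlg, Cxcr2 and Cxcr1 were at 0. The part of RNA from other cells in the results below was not tested.

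The heavy chain genes of these cells were mostly Ighm and Ighd, the pair that naive B cells use. Ighm had a UMI in 29 of 32 control cells and in 29 of 33 ischemia cells. Ighd had one in 24 and 22 cells, both had one in 22 and 19, and at least 1 of the 2 had one in 31 and 32. After each cell was thinned to 1000 UMIs, Ighm was seen in 75% of control and 48.5% of ischemia B cells and in 8.22% and 6.52% of T and NK cells. The median depths before thinning were close, at 3168 and 3783 UMIs in B cells and 3410 and 3614 in T and NK cells. In TAL (thick ascending limb) cells Ighm was seen in 0% after thinning and in 0.511% and 0.434% before it, but with 14186 and 22330 UMIs these were far deeper, and thinning lowers free RNA more in deeper cells. Summed, Ighm gave 1184 CPM in control cells (996 to 1398) and 1049 CPM in ischemia cells (880.5 to 1241), a ratio of 0.886 (0.694 to 1.13). Ighd was at 537 and 486 CPM, a ratio of 0.906 (0.628 to 1.31). Both counting intervals held 1. Over all 71 cells the log2 ratios were 0.20 for Ighm and 0.07 for Ighd, and after thinning they were 0.25 and -0.67. Without the cells of 3 or more UMIs of macrophage, neutrophil, T or NK cell markers they were 0.48 and 0.76. That setting kept all 4 control cells of over 8000 UMIs and neither of the 2 ischemia ones. It therefore cannot show what the marker cells alone did.

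Switched isotypes were almost missing among the 65 cells. Igha had 1 UMI in 1 cell of each library, IgG genes had 4 UMIs in 1 control cell and none in ischemia, and Jchain had none. For Jchain this allows up to 9.38% of control cells and 9.09% of ischemia cells to hold a UMI. The genes of germinal centers and proliferation, 12 in the list, summed to 7 and 18 UMIs. In both libraries nearly all of these cells had Ighm or Ighd UMIs, and the IgA-secreting cell and a control cell with 4 IgG UMIs were the only gated cells with more than 1 UMI of a switched isotype.

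Most cells used kappa. Igkc exceeded the sum of Iglc1, Iglc2 and Iglc3, the lambda constant regions, in 29 of 32 control cells and in 28 of 33 ischemia cells, and lambda exceeded kappa in 2 and 4 cells. In 2 ischemia cells Igkc was at 0 beside 31 and 19 lambda UMIs, and the ischemia cell of 1204 UMIs had neither. Most kappa cells nevertheless had a few lambda UMIs, and lambda was seen in 30 cells of each library with a median of 4.50 and 6 UMIs per cell. Igkc was at 5197 CPM in control and 5440.1 in ischemia, a ratio of 1.05 (0.938 to 1.17). With all 71 cells the ratio was 0.0845, since the IgA-secreting cell alone held 92.8% of the control Igkc UMIs. The 3 lambda genes are near-identical, so their split is uncertain.

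**Figure D3:**
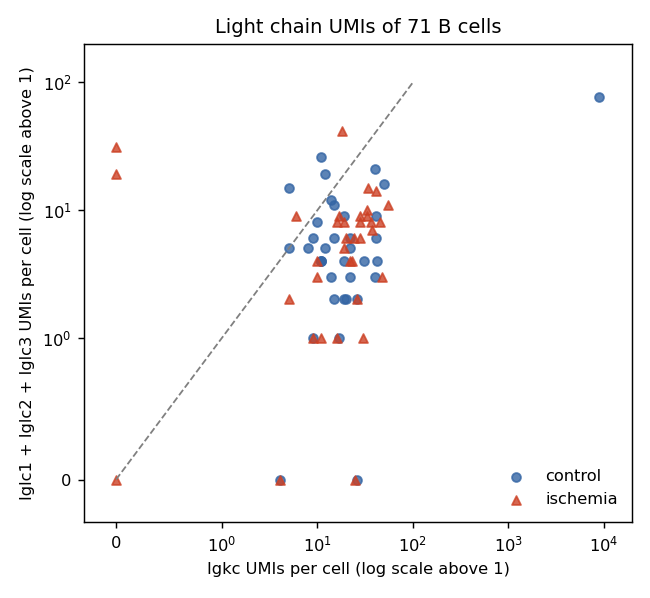
Igkc UMIs (horizontal) and the sum of Iglc1, Iglc2 and Iglc3 UMIs (vertical) in each of 71 B cells, on axes that are logarithmic above 1, with circles for control, triangles for ischemia and a dashed line where both are equal. The IgA-secreting control cell lies far right at 8919 Igkc UMIs and 2 ischemia cells lie at 0 on the kappa axis with 31 and 19 lambda UMIs.

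Ischemia and control B cells were then compared gene by gene as the ratio of ischemia to control CPM. Over all 71 cells, 1779 genes had at least 30 UMIs. Of these 186 (10.5%) were at least 2-fold higher in ischemia and 62 (3.49%) were at least 2-fold lower, but 53 of the 186 and 30 of the 62 had most of the higher library's UMIs in 1 cell. Of the 10 highest ratios over the 71 cells, 9 rested on 1 ischemia cell, which can be the same cell for several genes. In Chrm3, Adamts1, Atf3, Iigp1, Adamts9, Gadd45g, Ly6c1, Adgrl4 and Cavin2, from 86.7% to 100% of the ischemia UMIs were in 1 cell. Without the largest cell of each library, Adamts9, Atf3, Iigp1 and Ly6c1 were lower in ischemia. The largest ischemia cell was that of 32214 UMIs with 301 endothelial marker UMIs. Of the 10 lowest, Igha, Jchain, Igkc, Iglv1 and Ly6k had most of their control UMIs in the IgA-secreting cell, and the tubule genes Slc12a3 and Slc5a12 had most of theirs in 1 control cell each. Over the 65 cells, 1041 genes had 30 UMIs, 42 (4.03%) were 2-fold higher, 23 (2.21%) were 2-fold lower, and none of them had most of its UMIs in 1 cell. The 2 sets shared 29 higher and 11 lower genes. The median gene was itself higher in ischemia, by 0.33 (log2) over the 71 cells and by 0.14 over the 65. With CPM scaled to a median ratio of 1, the split was 82 higher to 116 lower over the 71 cells and 25 to 36 over the 65. The same shares were 4.64% and 3.53% in T and NK cells and 8.31% and 5.04% in macrophages, where more genes could be compared.

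B cell identity genes were mostly close to the ratio of all genes over the 65 cells. Of 25 markers outside the gate, 18 could be compared and 0 were past 2-fold in either direction, beside 6.24% of all genes, with a median log2 ratio of 0.12 beside 0.14 for all genes. The spread ran from -0.71 to 0.78. The medians depended on which cells were kept. Over all 71 cells they were 0.13 for these markers, 0.49 for receptor signaling genes and 0.33 for all genes. With cells that held 3 or more UMIs of other leukocyte markers left out, 32 control and 22 ischemia cells remained. The medians were then 0.67, 0.68 and 0.35. Ebf1 was at 1.07, Vpreb3 at 1.14 and the kinase gene Blk at 1.26, against 0.81, 0.69 and 0.45 over the 71. The cells that remained included all 4 control cells of over 8000 UMIs and neither of the 2 ischemia ones. The effect of the marker cells alone was therefore not tested. Fcer2a, which codes for the low-affinity IgE receptor CD23 of follicular B cells, was at 341 CPM in control and 208 in ischemia (ratio 0.611, 0.361 to 1.02). Pax5 had a ratio of 1.40 (0.886 to 2.24), and Vpreb3, an early B cell chaperone, had one of 1.72 (0.976 to 3.12). The counting intervals of Ebf1 (1.51, 1.26 to 1.82) and Bank1 (1.43, 1.16 to 1.77) left out 1, and both genes were higher in ischemia. Cd37, a tetraspanin of mature B cells, was at 511 and 478 CPM (0.936, 0.646 to 1.36). Its log2 ratio was 0.07 over all 71 cells and 0.67 in the setting without the cells holding other leukocyte markers. Rarer markers included Cd72, an inhibitory coreceptor, with 8 UMIs in control and 19 in ischemia (2.15, 0.899 to 5.68), and Fcrl1, an Fc receptor-like protein, with 8 and 14 (1.58, 0.621 to 4.36).

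Genes that carry the receptor signal forward ran from -0.34 to 0.94 (log2) over the 65 cells. Of 21, 11 could be compared, 0 were past 2-fold, beside 6.24% of all genes, and 9 were above 1, as were 63.0% of all genes. Their median log2 ratio was 0.22 beside 0.14 for all genes. Over all 71 cells 2 of 14 were at least 2-fold higher in ischemia, beside 10.5% of all genes, and the median was 0.49. Prkcb, the kinase that links the receptor to NF-kB, was at 366 CPM in control and 625 in ischemia (ratio 1.71, 1.16 to 2.53). The proximal kinases Lyn and Syk were close to 1, at 1.09 and 1.15, and so was the adaptor Blnk, at 0.968. Fyn, another Src family kinase, had 2 UMIs in control and 18 in ischemia, too few to be compared over the 65 cells, with a ratio of 8.15 and a wide interval (1.95 to 72.4). Over all 71 cells its ratio was 3.27.

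Of 13 inhibitors of the receptor 4 could be compared, and Inpp5d alone was past 2-fold and higher in ischemia, beside 4.03% of all genes. Inpp5d codes for SHIP1, the phosphatase that removes the lipid signal of PI3 kinase below inhibitory receptors, and lies at chr1:87620312-87720507 on the plus strand of mm10. It had 19 UMIs in 14 of 32 control cells and 66 UMIs in 24 of 33 ischemia cells. These were 162 CPM (97.5 to 253) and 509 CPM (394 to 648), and the intervals did not overlap. The ratio was 3.15 (1.87 to 5.55) and was 2.92 over all 71 cells. In T and NK cells it was 1.07, in macrophages 0.792 and in all other kept cells 2.38, and the difference between these gates was not tested. The share of B cells with an Inpp5d UMI after thinning was 12.5% in control and 42.4% in ischemia, beside 0% in the deeper TAL cells, where it was 0.511% and 1.74% before thinning. Siglecg, an inhibitory lectin of B cells, had a ratio of 1.60 (0.778 to 3.44), and Ptpn6, which codes for the phosphatase SHP-1, had one of 0.956. The log2 ratio of Siglecg was 0.84 over all 71 cells and 1.61 without the cells holding other leukocyte markers. That setting kept all 4 control cells of over 8000 UMIs and neither of the 2 ischemia ones.

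Activation genes were mixed. Of 32, 13 could be compared, 2 were at least 2-fold higher in ischemia and none was 2-fold lower, beside 4.03% and 2.21% of all genes, with a median log2 ratio of 0.34. Over all 71 cells the median was 0.50, and without the largest cell of each library it was -0.21. Nr4a1, which codes for Nur77 and is switched on by the antigen receptor, had 9 UMIs in 7 control cells and 30 UMIs in 17 ischemia cells. At 76.7 CPM and 231 CPM the ratio was 3.02 (1.40 to 7.23), beside 0.685 in T and NK cells and 1.43 in macrophages. Cd83, a surface protein of activated B cells that stabilizes MHC class II, was at 298 CPM in control (208 to 415) and 617 in ischemia (489 to 768). Its ratio was 2.07 (1.38 to 3.17), beside 0.584 in macrophages, where it was at 673 and 393 CPM. In T and NK cells the ratio was 2.15, but Cd83 had under 30 UMIs there, too few to be compared. The log2 ratio in B cells was under 2-fold over all 71 cells (0.98), with at most 25% mitochondrial UMIs (0.83) and with averaged CPM (0.97). It was past 2-fold with a gate of 5 UMIs and 0.1% (1.15), without the cells holding other leukocyte markers (1.44) and after a random thinning of the 71 cells (2.67). The marker limit left all 4 control cells of over 8000 UMIs and neither of the 2 ischemia ones. Cd83 was seen after thinning in 25% and 45.5% of B cells, in 2.74% and 1.09% of T and NK cells and in 0.132% and 0% of the deeper TAL cells.

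Junb, an AP-1 factor, was higher as well, at 486 and 895 CPM (1.84, 1.33 to 2.58). Its log2 ratio was 0.84 over all 71 cells, but 0.25 without the cells holding other leukocyte markers and 0.12 without the largest cell of each library. For other early genes the interval held 1. Cd69, which holds lymphocytes in tissue, had a ratio of 1.54 (0.895 to 2.69), Fos, another AP-1 factor, one of 1.17 and Btg1, an antiproliferative gene, one of 0.950 (0.751 to 1.20). Over all 71 cells Fos was at 0.50 (log2) and Btg1 at 0.14. In the 2 settings given for Junb, Fos was at -1.09 and -1.22, past 2-fold lower, and Btg1 at 0.80 and 0.13. The first setting kept all 4 control cells of over 8000 UMIs and neither of the 2 ischemia ones. The second left out only the largest in each library, so neither was balanced in such cells. Egr1 was at 8 and 5 UMIs in the 65 cells (0.566, 0.146 to 1.96). Over all 71 cells Egr1 had a ratio of 3.54 and Atf3, a stress-induced factor, one of 10.5, but 96.2% and 96.7% of their ischemia UMIs were in 1 cell.

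**Figure D4:**
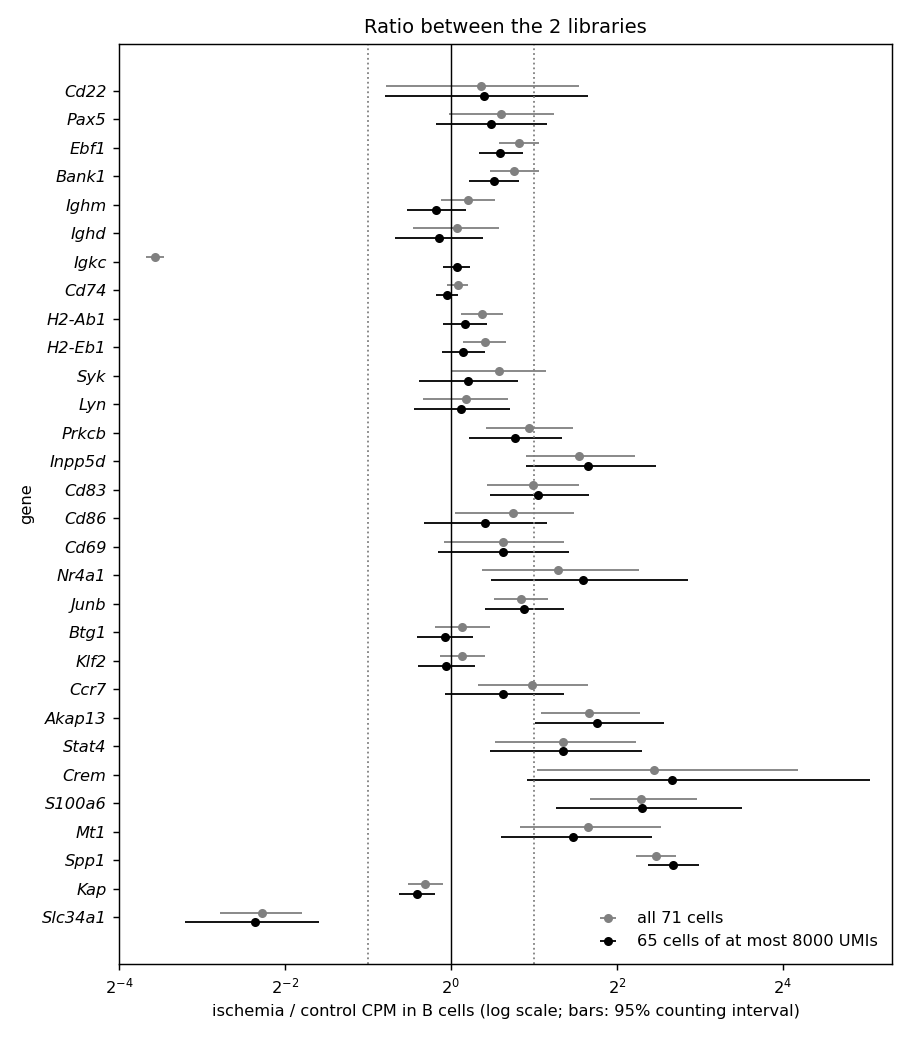
Ratio of ischemia to control CPM in B cells (horizontal, log scale) for selected genes (vertical), in grey over all 71 cells and in black over the 65 cells of at most 8000 UMIs, with 95% counting intervals as bars and dotted lines at 2-fold. Inpp5d, Akap13 and Spp1 lay right of 1 in both sets, and Igkc moved from 0.0845 to 1.05 between them.

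Antigen presentation genes were close to 1 in the 65 B cells. Of 14 genes of the MHC class II pathway, 9 could be compared and 0 were past 2-fold, which at 6.24% of all genes says little for so short a list. The median log2 ratio was 0.13 beside 0.14 for all genes. Cd74, the invariant chain, was at 7685 CPM in control and 7439 in ischemia (0.968, 0.883 to 1.06). H2-Aa had a ratio of 1.05, H2-Ab1 one of 1.12 and H2-Eb1 one of 1.11, all chains of the class II molecules. Over all gated B cells the class II median was 0.25. Among the 32 control and 22 ischemia cells with fewer than 3 UMIs of other leukocyte markers it was 0.84, beside 0.35 for all genes. H2-Ab1 was then at 0.91 and H2-Eb1 at 0.84 (log2). These cells included all 4 control cells of over 8000 UMIs and neither of the 2 ischemia ones. What the marker cells alone did to class II genes was therefore not tested. In C1q-high macrophages most class II genes were lower in ischemia. Cd74 there was at 15395 and 6539 CPM (ratio 0.425), and H2-Ab1 and H2-Eb1 had ratios of 0.351 and 0.340. In macrophages 7 of the 9 genes that could be compared were past 2-fold lower, beside 5.04% of all genes there. Among costimulatory genes, Cd86, a ligand of CD28 on T cells, had a ratio of 1.33 in B cells (0.801 to 2.23). On the log2 scale it was 0.75 over all gated B cells and 1.46 in the 32 control and 22 ischemia cells. Those sets differ from the 65 cells also in the cells of over 8000 UMIs. Cd40 was too rare to compare, with 5 UMIs in each library. MHC class I genes, led by H2-D1 and B2m, had a median log2 ratio of -0.08 over 6 genes, and interferon-stimulated genes one of 0.04 over 5, with 0 past 2-fold in both lists, beside 6.24% of all genes.

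Of 23 trafficking genes 9 could be compared and 0 were past 2-fold, beside 6.24% of all genes. Of 21 survival genes 6 could be compared and 1, Pim1, was past 2-fold and higher in ischemia, where 4.03% of all genes were. Ccr7, the receptor for lymph node chemokines, was at 239 and 370.4 CPM (1.55, 0.955 to 2.57). Cxcr5, the follicle homing receptor, had a ratio of 1.23 (0.584 to 2.65). Gpr183, an oxysterol receptor that positions B cells, had one of 1.12, and Klf2, the factor that keeps them in circulation, one of 0.962. None of these intervals left out 1. Over all gated B cells the log2 ratios were 0.97 for Ccr7, 0.55 for Cxcr5, 0.38 for Gpr183 and 0.14 for Klf2. Without the cells holding other leukocyte markers they were 1.08, past 2-fold, 0.91, 0.98 and -0.12. The cells then left included all 4 control cells of over 8000 UMIs and neither of the 2 ischemia ones. A change due to the marker cells alone was therefore not tested. Pim1, a survival kinase, was at 9 and 21 UMIs (2.11, 0.928 to 5.24) and Bcl2, an inhibitor of cell death, at 29 and 18 UMIs (0.562, 0.294 to 1.05). Tnfrsf13c, the BAFF receptor, had 8 and 10 UMIs. Its ligand BAFF, Tnfsf13b, had no UMI in these B cells and was at 57.6 and 45.0 CPM in macrophages. Cxcl13, the ligand of Cxcr5, was at 0 in control macrophages and 97.6 CPM in ischemia macrophages.

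Outside the lists, the genes named next were chosen by the highest ratio over the 65 cells among genes at or above their level in other kept cells. Akap13, an anchoring protein for protein kinase A, was at 162 and 548 CPM (3.38, 2.02 to 5.95), with 19 UMIs in 14 cells and 71 UMIs in 26 cells. Its ratio was 1.08 in T and NK cells and 0.932 in macrophages. Ppp1r12a, the targeting subunit of myosin phosphatase, had a ratio of 3.22, with 9 and 32 UMIs, Cblb, a ubiquitin ligase that damps antigen receptor signals, one of 2.64 (1.34 to 5.59), Hmgb2, a chromatin protein, one of 2.57 (1.30 to 5.44) and Stat4, a cytokine signaling factor, one of 2.54 (1.38 to 4.92). The log2 ratio of Cblb was 1.07 over all 71 cells, 1.25 with a gate of 5 UMIs and 0.1% and 1.13 with averaged CPM. It was under 2-fold with at most 25% mitochondrial UMIs (0.96) and after thinning (0.40). Crem, a cAMP-responsive factor named by the same rule over the 71 cells, had 3 UMIs in control and 21 in ischemia (6.34, 1.89 to 33.2), too few to be compared over the 65 cells. Of the 42 genes at least 2-fold higher, 34 had an interval that left out 1. These intervals used the counts that chose the genes, so they give no separate support. Of the 42, 15 were also at least 2-fold higher in all other kept cells, where 9.56% of 18111 compared genes were. The share over the 1041 genes that gave the 42 is not given here. The 42 genes had a median span of 45.9 kb, against 18.4 kb for the 1041 genes compared and 16.8 kb for the 23 lower genes. In T and NK cells and in macrophages the higher genes had median spans of 21.2 and 18.7 kb, against 29.2 and 26.8 kb for all genes compared there.

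The highest ratio among the 1041 genes was that of Spp1, a gene known from the injured tubule. It codes for osteopontin and was at 861 CPM in control B cells and 5509.6 in ischemia B cells (6.40, 5.19 to 7.97), in 31 of 32 and 33 of 33 cells. It had ratios of 7.31 in T and NK cells, 4.59 in macrophages and 7.73 in all other kept cells, and TAL cells had 10449.7 and 75179.9 CPM. Lcn2 had 1 and 23 UMIs (20.8, 3.38 to 858) and Clu 16 and 64 UMIs (3.62, 2.07 to 6.71), both induced in damaged tubules. Mt1, a metallothionein, was at 128 and 355 CPM (2.78, 1.52 to 5.36) and at 2743 and 12012 CPM in TAL cells. Each of these 4 was also higher in the ischemia library in the T and NK gate, the macrophage gate and all other kept cells. S100a6, a calcium-binding protein listed with B-1 cell genes, was at 76.7 and 378 CPM (4.93, 2.40 to 11.4) and had a ratio of 5.32 in all other kept cells. Its log2 ratio of 2.30 was 0.85 without the cells holding other leukocyte markers, which is under 2-fold. It was 1.06 without the largest cell of each library and 1.04 after thinning. Leaving out the marker cells kept all 4 control cells of over 8000 UMIs and neither of the 2 ischemia ones. For S100a6 the effect of the marker cells alone was therefore not tested.

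Genes of the tubule were among those lower in ischemia. Of 9 PT markers that could be compared 4 were at least 2-fold lower, beside 2.21% of all genes, and all 9 were below 1. Slc34a1, the PT phosphate transporter, had 673 CPM in control B cells and 131 CPM in ischemia B cells (0.195, 0.108 to 0.332), and had ratios of 0.513 in T and NK cells, 0.326 in macrophages and 0.452 in all other kept cells. Lrp2, which codes for megalin, had a ratio of 0.293 (0.134 to 0.592), and Kap, a PT gene driven by androgen, one of 0.756. Gm42418, a locus that overlaps a ribosomal RNA repeat, was at 87851 and 40666 CPM (0.463), and its ratio was between 0.384 and 0.525 in T and NK cells, macrophages and all other kept cells. Clec2d, a lectin ligand of NK cell receptors, was at 27 and 9 UMIs (0.302, 0.125 to 0.661) beside 0.955 in T and NK cells, but its ratio over all 71 cells was 0.818. Of the 23 lower genes, 20 were also lower in all other kept cells and 11 were 2-fold lower there. In those cells 4.46% of 18111 compared genes were at least 2-fold lower. The shares over the genes compared in B cells, from which the 23 came, are not given here for either count.

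**Figure D5:**
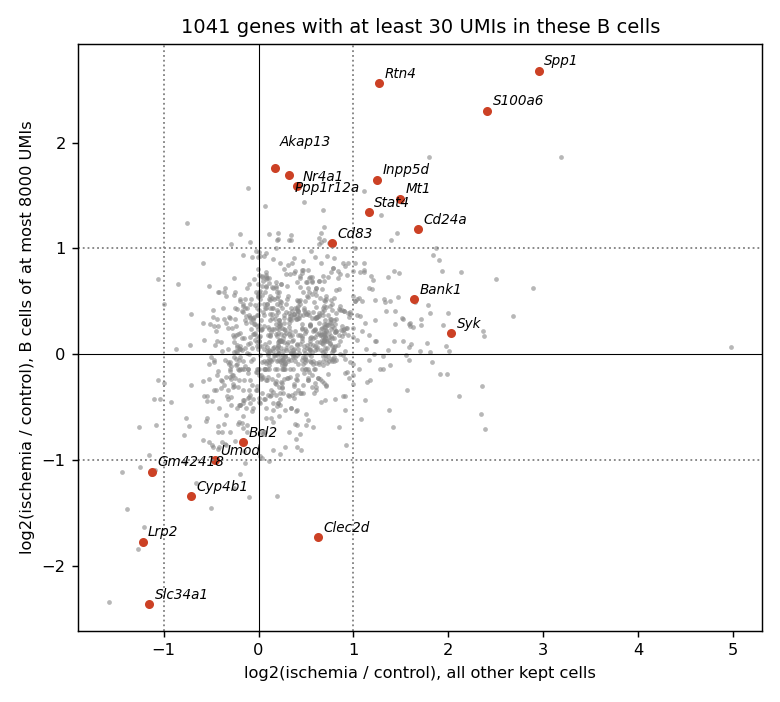
Each point is 1 of 1041 genes, by its log2 ratio of ischemia to control CPM in all other kept cells (horizontal) and in B cells of at most 8000 UMIs (vertical), with named genes in red and dotted lines at 2-fold. Spp1 and S100a6 lie high on both axes, Slc34a1 and Lrp2 low on both, and Akap13 and Nr4a1 high on the B cell axis with other-cell ratios under 2-fold.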

How the data were processed

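The UMI counts per gene and barcode were deposited by the authors as raw Cell Ranger 7.0.0 matrices on mm10, per the submitters' processing notes, for 15110 control and 15257 ischemia barcodes and 32285 genes. A barcode needed 200 genes, between 500 and 150000 UMIs and no more than 55% UMIs from mitochondrial genes. CPM are UMIs summed over the gated cells of a library, divided by their total. Genes with at least 30 UMIs over both libraries were compared, and at least 2 or at most 0.5 counted as past 2-fold. Intervals at 95% were exact Poisson (levels), conditional binomial (ratios) and Clopper-Pearson (shares), and a count of 0 took a limit of 3 counts. Where positive cells are compared, cells were first thinned to 1000 UMIs (seed 42), which left out 0 B cells and 28 control and 10 ischemia TAL cells. UMIs are molecules, but cells of 1 library are not replicates, so no test was run between conditions.

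T and NK cells had at least 3 UMIs and 0.05% of Cd3d, Cd3e, Cd3g, Trac, Trbc1, Trbc2, Nkg7 and Klrb1c and none of the B cell gate genes. Macrophages had at least 0.5% of the C1q genes and neither Cd3e nor the B cell gate genes. TAL cells had at least 0.5% Umod and Slc12a1. The genes named were those of the 35 gene lists with at least 10 UMIs, the 10 highest and 10 lowest ratios over the 71 cells, and the same among genes whose level was at or above that in other kept cells. The members and lists were chosen with earlier results of these data known. The limit of 8000 UMIs, the highest ratios over the 65 cells, the motifs, and Rtn4, Clu and Gm42418 were chosen after values were seen. Some genes that the rule names are not reported here. Doublets were not removed, since Scrublet, as in scanpy 1.11.5, called 0 cells. Gene spans came from the GENCODE annotation of mm10, which held 32235 of the gene IDs. Overlapping genes and near-identical immunoglobulin genes may share reads. Software was Python 3.11.15 (scipy 1.17.1, numpy 2.4.6, matplotlib 3.10.9, pandas 2.3.3), and the ratios and intervals were tested on simulated Poisson counts. Those counts held no spread between cells, so the intervals were not tested against it.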

Additional observations from a re-analysis of the deposited data

Results flagged for a closer look

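An immunoglobulin-secreting cell of the ischemia library lay outside the B cell gate, because its 16 gate UMIs were 0.0443% of its 36143 UMIs. It held 2696 UMIs of Ighg3 (7.46% of the cell), the IgG3 heavy chain, which had no UMI in the gated ischemia cells. It also held 5536 UMIs of Igkc (15.3%), 273 of Jchain and 249 of Mzb1, against 16 of Ighm. Among all ischemia cells outside the gate there were 5731 Igkc UMIs, so that nearly all of them were in this cell. Each library thus held 1 cell with more than 1000 UMIs of a switched heavy chain, Igha in control and Ighg3 in ischemia.

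A single control barcode met the B cell gate with 13 gate UMIs but was removed with 55.8% mitochondrial UMIs, just over the limit of 55%. It had 13576 UMIs, 51 UMIs of Igkc and 155 UMIs of PT markers.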

How the results depend on the processing

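No paired analysis was possible because each condition had 1 library. Depth limits these values to genes with at least 30 UMIs over 71 cells, and rarer genes of the lists could not be compared. Over the 71 cells, the main values were 186 higher and 62 lower genes and median log2 ratios of 0.13 (B cell markers), 0.49 (receptor signaling), 0.25 (MHC class II), 0.50 (activation) and 0.33 (all genes).

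With the 65 cells of at most 8000 UMIs, an alternative chosen after seeing the data, these were 42 and 23 genes and medians of 0.22, 0.13, 0.34 and 0.14 for receptor signaling, class II, activation and all genes. With at most 25% mitochondrial UMIs, 29 genes were lower and the medians were 0.01 (markers), 0.03 (class II), 0.25 (activation) and 0.26 (all). With at least 1000 UMIs the B cell shares were 0.399% and 0.444%, which turned their order. They rose by construction, since fewer other cells remained. A gate of 5 UMIs and 0.1% gave 41 and 27 genes and medians of 0.30 (receptor signaling) and 0.17 (all). Leaving out cells with 3 or more UMIs of other leukocyte markers kept 32 and 22 cells, a share of 0.168% in ischemia, 120 higher and 77 lower genes and medians of 0.67, 0.68, 0.84, 0.27 and 0.35 for markers, receptor signaling, class II, activation and all genes. The cells kept included all 4 control cells of over 8000 UMIs and neither of the 2 ischemia ones, so this setting changed more than the marker cells. Averaging the CPM of single cells gave 105 higher and 83 lower genes and 0.29, 0.10, 0.21 and 0.15 for receptor signaling, class II, activation and all genes. Thinning every cell left 221 genes, with 7 higher and 8 lower, and 0.97, 0.63 and 0.19 for receptor signaling, activation and all genes. Without the largest cell of each library, 69 genes were higher and 48 lower, and the medians were 0.29 (receptor signaling), -0.21 (activation) and 0.24 (all). A minimum of 100 UMIs left 356 genes, with 15 higher and 10 lower. A minimum of 10 UMIs gave 906 and 404 of 5190 genes, and medians of 0.20, 0.36 and 0.29 for markers, receptor signaling and activation. Scaling to a median ratio of 1 gave 82 and 116 genes and -0.19 (markers), 0.16 (receptor signaling), -0.08 (class II), 0.18 (activation) and 0.00 (all). Apart from the number of cells or genes left, the cause was not tested.

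Single genes that reversed, as log2 ratios, were mostly those that rested on 1 cell. Without the largest cells they were Adamts9 (-0.91), Atf3 (-1.33), Egr1 (-2.87), Gpx3 (0.34), Iigp1 (-0.65) and Ly6c1 (-2.72). With leukocyte marker cells left out they were Atf3 (-0.56), Egr1 (-2.26) and Ly6c1 (-2.78), and Fos, at 0.50 over the 71 cells, was at -1.09. Egr1 was at -1.54 after thinning. With the stricter gate Egr1 was at -0.75, Igkc at 0.05, Txndc5 at 0.19 and Xbp1 at 0.74, and with the 65 cells Egr1 was at -0.82, Igkc at 0.07, Txndc5 at 1.44 and Xbp1 at 0.66. Txndc5 was at 0.01 with averaged CPM and Gpx3 at 0.14 with the mitochondrial limit. Leaving out called doublets gave no value, since none was called.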

Other observations

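Gene lists not described above were also compared over the 65 B cells of at most 8000 UMIs, where 6.24% of all genes were past 2-fold, so that a count of 0 in a short list says little. Of 9 follicular genes 7 could be compared and of 23 B cell transcription factors 13, with 0 past 2-fold in both and median log2 ratios of 0.02 and 0.17. Over all 71 cells these medians were 0.33 and 0.51. There 2 of 17 transcription factors were at least 2-fold higher in ischemia, beside 10.5% of all genes. Toll-like receptor genes had a median of 0.07 over 3 genes and glucocorticoid targets one of 0.15 over 4, also with 0 past 2-fold. The B-1 genes Cd5 and Itgam were at 0, and S100a6 was the only B-1 gene with 30 UMIs. Among marginal zone genes 2 could be compared, with a median of 0.28, and Mzb1 was the only plasma cell gene with 30 UMIs, at 204 CPM in control and 262 in ischemia (1.28, 0.739 to 2.26), but over all 71 cells, with the IgA-secreting cell, its ratio was 0.677. Of 12 immature and transitional genes Rag1, Rag2, Igll1, Vpreb1, Dntt, Cd93 and Erg were at 0. Cd24a had a ratio of 2.26 (1.05 to 5.28) beside 3.20 in all other kept cells. Its log2 ratio was 0.61 over all 71 cells, under 2-fold, and 0.03 over the 71 without the largest cell of each library.

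Cytokine genes were scarce in these B cells. Of 24 in the list 13 were at 0, among them Il10, Il6, Tnf and Lta. Ltb, which codes for lymphotoxin beta, was the only one with 30 UMIs, at 426 and 424 CPM (0.996, 0.667 to 1.49). Its log2 ratio was 0.30 over all gated B cells and 1.06 without the cells holding other leukocyte markers. The latter set held all 4 control cells of over 8000 UMIs and neither of the 2 ischemia ones. For Ltb the effect of the marker cells alone was therefore not tested. In T and NK cells Ltb was at 286 and 779 CPM, a ratio of 2.73. Of 25 stress genes 11 could be compared, with a median of 0.31, and Mt1 was the only one past 2-fold, beside 6.24% of all genes. Among other markers, Umod, the main TAL gene, had 29 and 16 UMIs, distal tubule and collecting duct markers summed to 41 and 15 UMIs, stromal markers to 3 and 4, dendritic cell markers to 2 and 2, and erythroid markers to 3 and 0.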
